A study of Mus musculus with 8 samples.

Results

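Ublcp1, which encodes a nuclear phosphatase of the proteasome, measured 5.85-fold lower in lungs with stabilized beta-catenin than in lungs in which beta-catenin was knocked out. The gene was chosen by its array values, as a large decrease in stabilized against knockout lungs, so its own difference is given as a description and carries no test. All probe sets annotated to Ublcp1 were taken, which gave 1 probe set with that single gene symbol and 0 probe sets shared with another gene, for 1 gene of 19937 measured. The arrays measured total RNA of whole, untreated lungs from mice at postnatal day 21, with 4 beta-catenin stabilized and 4 beta-catenin knockout mice, numbered 1 to 4 in each group as biological replicates. Beta-catenin is encoded by Ctnnb1, and a stabilized form escapes the degradation by the proteasome that normally keeps its level down. The Cre driver, the altered exons and the inbred background of the mice are not named in the labels, and unmodified lungs were not analysed here, so the difference does not say which group departed from a normal lung.

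The Ublcp1 protein joins a ubiquitin-like domain to a phosphatase domain with the aspartate-rich catalytic motif of the Fcp and Scp phosphatases. The ubiquitin-like domain binds Psmd2, a scaffold subunit of the regulatory particle that caps the proteasome, and the phosphatase removes phosphate from regulatory particle subunits, among them Psmc2. It is known to lower the activity of proteasomes in the nucleus, and was first described by its ability to dephosphorylate the tail of RNA polymerase II. The proteasome itself consists of a barrel-shaped core particle that cuts proteins and regulatory particles that recognise, unfold and feed in ubiquitin-tagged substrates.

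The RefSeq promoter table (build GRCm38.p6) places Ublcp1 on the minus strand of chromosome 11. The 85 bases that lie just upstream of the outermost annotated start of the gene, chr11:44470714-44470798, are shown because they mark the place in the genome on which the comparison with neighbouring genes below turns.
Ublcp1 upstream, 5′ to 3′ on the minus strand: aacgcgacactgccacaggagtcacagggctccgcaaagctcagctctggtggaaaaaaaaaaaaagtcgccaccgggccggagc
Of these bases 57.6% are G or C. The whole 300-base window in the table was searched on both strands for short motifs. The core bound by the TCF/LEF partners of beta-catenin was searched in 2 forms, CTTTGAT, present in 3.73% of the 32851 promoters of the table, and CTTTGAA, present in 5.14%. The antioxidant response element bound by Nfe2l1, the transcription factor of proteasome genes, was searched as TGACNNNGC, present in 12.4%. The Ublcp1 window held 0 matches to each, which says only that these letters are not in this window.

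Before the values, the recorded sex of the mice needs mention, because 4 of the 8 arrays did not match it. The labels call every mouse male, yet Xist, the RNA of the inactive X chromosome, lay between 10.36 and 10.59 on the log2 scale in stabilized replicates 1 and 4 and knockout replicates 1 and 3. In the other arrays it lay between 4.18 and 4.62. Kdm5d, Eif2s3y and Uty, genes of the Y chromosome, were at 4.00 or below in the arrays with high Xist and at 6.71 or above in the others. The pattern of the 4 arrays with high Xist was thus that of female mice. Each group held 2 arrays with high Xist, and results are given with and without these arrays where that changes a call. The defining lung markers were high in every array, with Sftpc, the surfactant protein of type 2 cells, at 13.00 or above and Scgb1a1, the club cell secretoglobin, at 12.33 or above. Of the liver genes, Alb, which encodes serum albumin, was at 8.08 in stabilized replicate 2 and between 4.09 and 4.64 in the other arrays. The summed level of those 4 liver genes was 8.62 on the log2 scale in that array and 6.86 to 7.07 in the other arrays.

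On the log2 scale the level of Ublcp1 was 5.44, 5.54, 5.21 and 5.19 in stabilized replicates 1 to 4. It was 7.63, 7.68, 8.35 and 7.91 in knockout replicates 1 to 4. All stabilized arrays were low and all knockout arrays were high, and the gap of 2.09 between the highest stabilized and the lowest knockout array was wider than the range within either group, which was 0.35 in stabilized and 0.72 in knockout lungs. Knockout replicate 3 was the highest array. The mean was 5.34 ± 0.17 (SD, n = 4) for stabilized lungs against 7.89 ± 0.33 (SD, n = 4) for knockout lungs, and the difference was -2.55 ± 0.14 (moderated SE). Groups without overlap and lower values in stabilized lungs were found in 7.82% of all genes. The stabilized values lay below the array medians of 5.97 to 6.03, a range in which background signal left by the array processing compresses differences. They were not shown to lie above background, so the fold and the rank by size describe the measured values only.

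**Figure D1:**
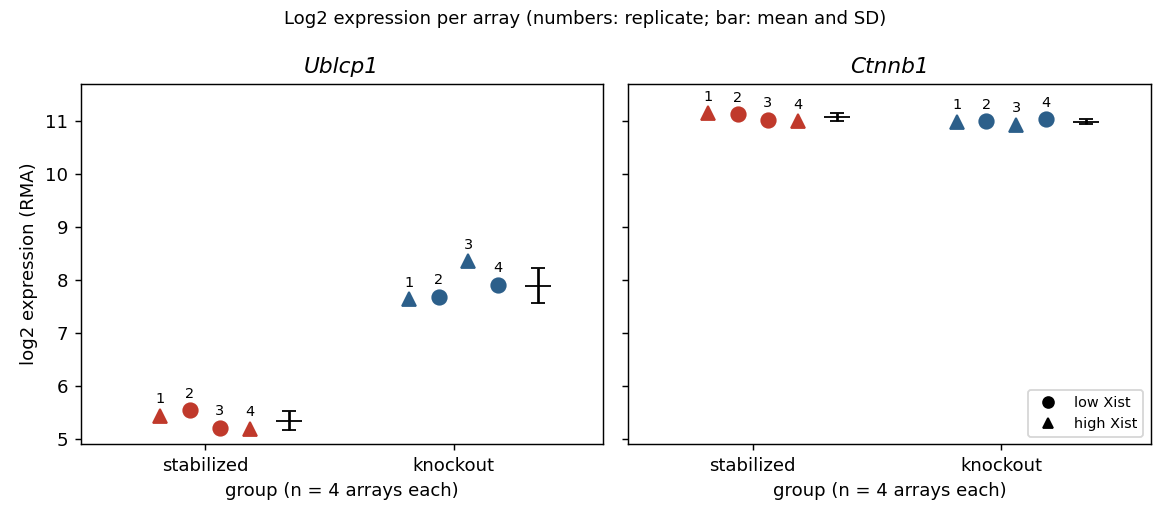
Log2 expression of Ublcp1 (left) and Ctnnb1 (right) on 8 arrays, with 1 point per array, its replicate number above it, triangles for arrays with high Xist, and the mean and SD of 4 arrays beside the points. Ublcp1 lies between 5.19 and 5.54 in stabilized and between 7.63 and 8.35 in knockout lungs, whereas the Ctnnb1 points of the groups overlap.

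The decrease was present in arrays of both Xist patterns. Among arrays with high Xist, stabilized replicates 1 and 4 differed from knockout replicates 1 and 3 by -2.68. Among arrays with low Xist, stabilized replicates 2 and 3 differed from knockout replicates 2 and 4 by -2.42. The difference between these values, -0.26 ± 0.29 (SE), did not pass the test of the interaction (limma adjusted p = 1 over all genes). With 2 arrays of each pattern in a group, that test called 0 of all 19937 genes, so its outcome for Ublcp1 says little. Ublcp1 also did not pass a test between the patterns themselves, with high minus low Xist at 0.07 ± 0.15 (SE, limma adjusted p = 1). Neither of these tests uses the contrast by which the gene was chosen. Both were added after the data were seen.

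Ctnnb1, the altered gene, lay at 11.14, 11.12, 11.02 and 10.99 in stabilized replicates 1 to 4 and at 10.98, 10.99, 10.92 and 11.03 in knockout replicates 1 to 4. The groups overlapped, and the difference was 0.09 ± 0.06 (SE, limma adjusted p = 0.42). Its 1 probe set does not check the genotype labels, since the altered exons are not given.

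Among all genes Ublcp1 ranked 2 by the size of its decrease. Ahead of it stood Reg3g, an antimicrobial lectin of airway epithelium, with -3.40 ± 0.34 (SE). Behind it came Bpifa1, a secreted airway defence protein, with -2.23 ± 0.37, then Ccl5, a chemokine of T and NK cells, with -1.95 ± 0.16, and Ms4a4b, a lymphocyte membrane protein, with -1.93 ± 0.18 (SE). A decrease of at least 1 on the log2 scale that passed the test was found in 74 genes, or 0.371% of all genes. The spread of Ublcp1 within groups was smaller than that of the airway genes beside it: Reg3g ranged from 4.25 to 5.84 in stabilized and from 7.90 to 8.90 in knockout lungs, and Bpifa1 from 4.68 to 5.42 and from 6.10 to 8.42.

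The genes whose profile over the 8 arrays was nearest to that of Ublcp1 were markers of lymphocytes and of airway and cartilage cells. Likeness was measured as the root mean square difference between log2 profiles, each centred on its own mean, and is a description. It rests mostly on the step between the groups, for which Ublcp1 was chosen. The measure therefore favours other genes with large decreases and does not show shared regulation. The nearest was Ccl5 at 0.44, followed by Scgb3a2, a secretoglobin of the conducting airway, at 0.45, Ms4a1, a surface protein of B cells, at 0.46, and Cd79a, a signalling partner of the B cell receptor, at 0.48. Ms4a4b at 0.505 and Chad, a cartilage matrix protein, at 0.542 came next. All of these differed less between the groups than Ublcp1, which was chosen for its large decrease. Scgb3a2 was at 7.35, 7.26, 7.28 and 7.37 in stabilized and 8.90, 8.84, 9.32 and 8.99 in knockout replicates 1 to 4, with knockout replicate 3 highest as for Ublcp1. Cd79a was at 5.51, 5.48, 5.54 and 5.07 in stabilized and 7.31, 7.50, 7.04 and 7.17 in knockout replicates 1 to 4, and knockout replicate 3 was there the lowest array of its group. These profiles shared the step between the groups, while the order of the arrays within a group differed from gene to gene.

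**Figure D2:**
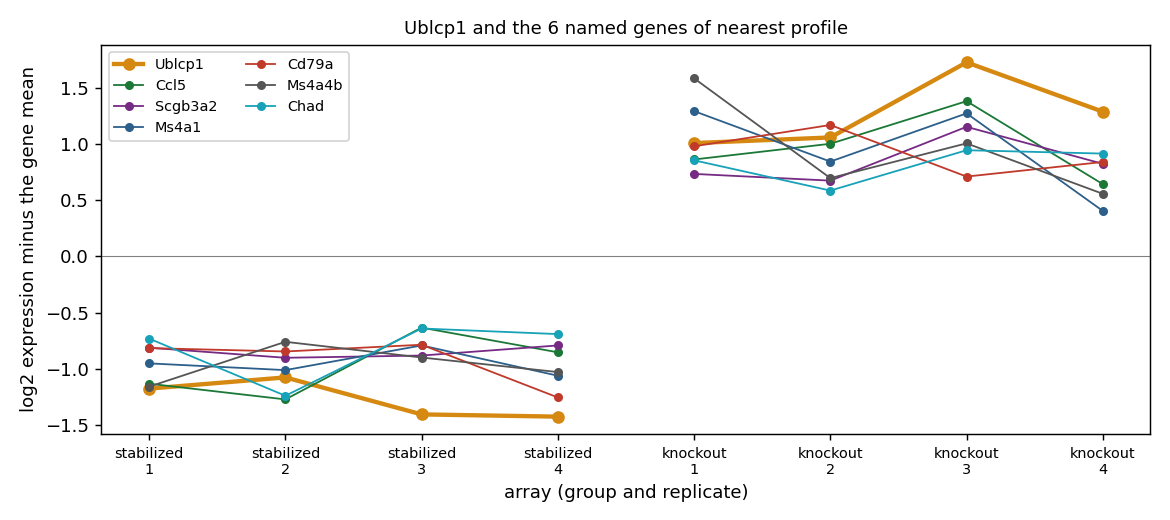
Log2 expression of Ublcp1 and of the 6 named genes with the nearest profile, each minus its own mean over the 8 arrays; lines only join the points of a gene within a group. Every gene is below its mean in the stabilized arrays and above it in the knockout arrays. The Ublcp1 step of 2.55, for which the gene was chosen, is the widest, and the other differences lie between -1.95 and -1.66.

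Markers of several cell types were lower alongside Ublcp1, and in whole lung fewer cells of a type and less RNA per cell cannot be told apart. Calls rest on limma with Benjamini-Hochberg adjustment over all genes and a threshold of 0.05, which 9.62% of genes passed, 4.65% as higher and 4.96% as lower in stabilized lungs. With each array centred on its median, 64.4% of the called genes were higher, against 48.4% without centring. Of 6 club cell markers 6 fell, with a median difference of -1.44, and of 7 ciliated cell markers 6 fell, with a median of -0.95. All 5 B cell markers fell with a median of -1.35, and all 6 T and NK cell markers fell with a median of -1.33. Cardiac muscle genes fell in 2 of 5. Type 2 cell markers rose in 3 of 6, and 1 of 5 macrophage and 1 of 5 fibroblast and smooth muscle genes rose. Of 5 type 1 cell, 5 endothelial and 4 liver genes 0 were called (limma), with 1, 0 and 0 at an unadjusted p under 0.05.

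The summed levels of these lists did not follow Ublcp1 in the same way within the groups. For club cell markers the log2 of the summed linear values was 12.98, 13.02, 13.09 and 13.07 in stabilized and 13.66, 13.74, 13.92 and 13.81 in knockout replicates 1 to 4. In knockout lungs this is the order of the Ublcp1 values, lowest in replicate 1 and highest in replicate 3, while in stabilized lungs replicates 1 and 2 were highest for Ublcp1 and lowest for the club cell list. The sum rests mostly on its highest members, Scgb1a1 and Cyp2f2, which were also lowest in knockout replicate 1. The club cell markers Scgb3a2, Scgb3a1, Muc5b and Cyp2s1 were lowest in knockout replicate 2 or 4. For the ciliated list all knockout arrays, at 9.55 to 9.70, lay above the highest stabilized array at 8.80. The B cell list ranged from 7.79 to 7.93 and from 9.01 to 9.44. For T and NK cell markers the summed level was 10.54, 9.97, 10.25 and 9.65 in knockout replicates 1 to 4, highest where Ublcp1 was lowest, and 8.63 to 9.06 in stabilized lungs. The part of these cell types in the Ublcp1 decrease was not tested.

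The chromosomal surroundings of Ublcp1 held a mixture of strongly different and level genes. Of the 10 nearest measured genes on each side in RefSeq order, 3 fell, 1 rose and 16 did not pass, so that 4 of 20 were called, against 9.62% of all genes and 9.22% of the other 1562 measured genes of chromosome 11. Their median difference was 0.00, against -0.01 over all genes. With 5 genes on each side 1 of 10 was called, and with 25 on each side 5 of 50. The genes on either side of Ublcp1 differed far less than it did, a comparison that its choice for a large difference largely fixed in advance. Rnf145, a ubiquitin ligase of the endoplasmic reticulum and the nearest measured gene on one side, differed by -0.08 ± 0.07 (SE, limma adjusted p = 0.49). Il12b, the shared subunit of interleukins of the IL-12 family and the nearest gene on the other side, lay between 4.59 and 4.73 in stabilized and between 4.83 and 5.46 in knockout lungs. Its groups did not overlap, but the difference of -0.38 ± 0.12 did not pass the test (SE, limma adjusted p = 0.064). It was -0.24 without knockout replicate 1, the highest array, and -0.20 without the 4 arrays with high Xist. Beyond them, Adra1b, Ttc1 and Clint1 differed by 0.03, 0.08 and -0.01, each with an SE of 0.06 or 0.07.

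The 2 large decreases near Ublcp1 stood 9 genes away on either side. Pttg1, which encodes securin, the inhibitor of the protease that separates sister chromatids and itself a target of the proteasome, was at 6.12, 6.50, 6.34 and 6.45 in stabilized replicates 1 to 4. In knockout replicates 1 to 4 it was at 7.62, 7.71, 7.60 and 7.50. The groups were far apart, with a decrease of 1.26 on the log2 scale, or 2.39-fold (SE 0.09, limma adjusted p = 3.6e-06). Slu7, a splicing factor and the neighbour of Pttg1 on the side of Ublcp1, differed by 0.05 ± 0.09 (SE), so the decrease of Pttg1 was not shared by the gene beside it. On the other side Cyfip2, a component of the complex that regulates actin branching, was at 6.83, 6.63, 6.76 and 7.02 in stabilized and 8.09, 7.59, 7.99 and 7.59 in knockout replicates 1 to 4. It fell by 1.01 on the log2 scale, or 2.01-fold (SE 0.12, limma adjusted p = 2.6e-04). In both groups Cyfip2 was highest in the arrays with high Xist. In knockout lungs the summed T and NK cell markers were also highest in these arrays, whereas in stabilized lungs that sum was highest in replicate 3. The part of these cells in the Cyfip2 decrease was not tested.

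A pair of smaller calls completed the window. Ebf1, a transcription factor of B cells that fibroblasts and pericytes also express, fell by 0.36 ± 0.07 (SE, limma adjusted p = 0.0095), beside the decrease of all B cell markers. C1qtnf2, a secreted protein related to complement C1q, rose by 0.33 ± 0.07 (SE, limma adjusted p = 0.01). Both calls were lost without the 4 arrays with high Xist, with limma adjusted p = 0.18 and 0.23, although the differences there were -0.39 and 0.32, whereas Pttg1 and Cyfip2 kept theirs in every alternative. In the 20 genes around Ctnnb1 itself, 2 fell and 18 did not pass, a share near the 9.62% of all genes. These were Ulk4, the gene next to Ctnnb1, with -0.56 ± 0.06, and Vipr1, with -0.32 ± 0.08 (SE, limma adjusted p = 1.6e-04 and 0.02), and both were chosen after their values were seen. Of these 20 genes 0 passed without the 4 arrays with high Xist (limma), with 5 at an unadjusted p under 0.05. Over all 19937 genes these counts were 354 and 2744.

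**Figure D3:**
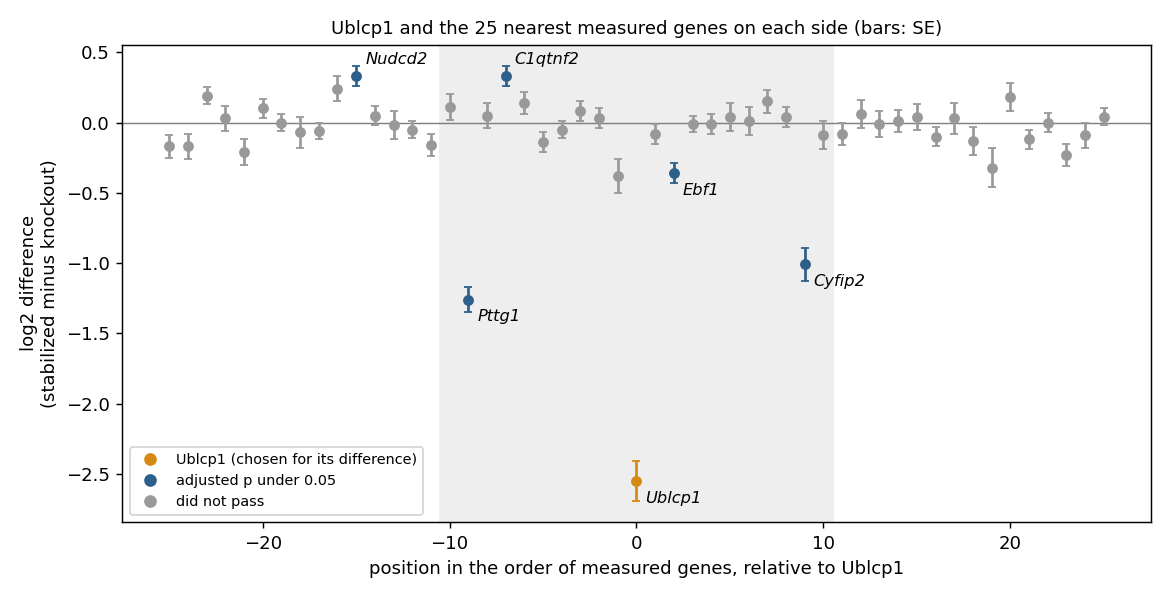
Log2 difference (stabilized minus knockout, with SE) of Ublcp1 and the 25 nearest measured genes on each side, in gene order rather than by distance; the grey band marks the 10 genes on each side. Ublcp1 at -2.55, Pttg1 at -1.26 and Cyfip2 at -1.01 stand below a row of genes near 0.

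A list of 10 genes known to differ between inbred mouse strains in level or copy number gave 3 decreases, 0 increases and 7 genes that did not pass, so that 30.0% were called, beside 9.62% of all genes and 4.96% called as lower. Hc, complement component C5, whose gene is inactive in several strains, lay between 9.97 and 10.32 in stabilized and between 10.97 and 11.02 in knockout lungs and fell by 0.85 ± 0.08 (SE, limma adjusted p = 4.0e-05). Apobec3, a restriction factor of retroviruses whose level depends on the strain, was at 6.92, 7.04, 6.82 and 6.93 in stabilized and 7.75, 7.84, 8.32 and 7.74 in knockout replicates 1 to 4. Its groups did not overlap, and the gene fell by 0.99 ± 0.12 (SE, limma adjusted p = 2.0e-04). Nlrp1b, an inflammasome sensor, fell by 0.36 ± 0.10 (SE, limma adjusted p = 0.039), a call that was lost in 5 of the 8 fits without 1 array. Without the 4 arrays with high Xist its difference was -0.20 (limma adjusted p = 0.48). Nnt, a mitochondrial transhydrogenase that carries a deletion in some C57BL/6 mice, differed by -0.26 ± 0.14 with groups that overlapped (SE, limma adjusted p = 0.30). The Nnt difference was -0.11 without stabilized replicate 2 and -0.60 without the 4 arrays with high Xist. Ifi202b, H2-Ea, Casp4, Klra8, Glo1 and Alad did not pass either. H2-Ea and Alad, picked here after their values were seen, split within a group. H2-Ea was at 5.09, 4.91, 4.14 and 4.09 in knockout replicates 1 to 4 and between 3.97 and 4.28 in stabilized lungs. Alad was at 8.79, 8.67, 9.34 and 9.28 in stabilized replicates 1 to 4 and between 8.80 and 8.89 in knockout lungs. Whether the background also varied between mice of a group was not tested. The strain background of the groups and their beta-catenin alleles cannot be told apart here. The part of the lower cell type markers given above in the decreases of Hc, Apobec3 and Nlrp1b was not tested.

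The genes of the proteasome, on which Ublcp1 acts, lay mostly slightly above 0. Of 67 measured proteasome genes in 6 lists, 6 rose, 1 fell and 60 did not pass, or 10.4% called beside 9.62% of all genes. Their median difference was 0.12, against -0.01 over all genes, and 50 of 67 lay above 0, a number that was 57 after centring each array and 50 after repeated quantile normalization. Over all 19937 genes, 9539 lay above 0, with 11696 after centring and 9815 after quantile normalization. The number of calls depended on scaling and model: 12 rose and 1 fell after centring, and 10 rose and 2 fell with an intensity trend and robust prior. Calls over all genes moved too, from 928 higher and 989 lower to 1495 and 826 after centring and to 1180 and 1061 with the trend. Without the 4 arrays with high Xist 0 passed (limma), with 9 at an unadjusted p under 0.05. Over all 19937 genes these counts were 354 and 2744.

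Of 15 core particle subunits, which form the chamber that cuts proteins, 1 rose and 14 did not pass. Psma7, a subunit of the outer ring, was at 8.20, 8.14, 8.20 and 8.13 in stabilized and 7.82, 7.78, 7.93 and 7.78 in knockout replicates 1 to 4. Its groups did not overlap, and it rose by 0.34 ± 0.06 (SE, limma adjusted p = 0.0041). The list's median was 0.13 and its members ranged from -0.28 to 0.34. In the ATPase ring of the regulatory particle, which unfolds substrates, 6 of 6 members lay above 0 under each scaling, 1 of them called. That was Psmc4, at 8.38, 8.32, 8.49 and 8.49 in stabilized and 8.16, 8.08, 7.98 and 8.07 in knockout replicates 1 to 4, which rose by 0.35 ± 0.07 (SE, limma adjusted p = 0.006). Psmc2, the ATPase that Ublcp1 dephosphorylates, differed by 0.24 ± 0.08 (SE, limma adjusted p = 0.087), and passed after centring (adjusted p = 0.045). Its difference was 0.19 after repeated quantile normalization and 0.16 without stabilized replicate 2, its highest array (limma adjusted p = 0.15 in each).

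Of 12 other subunits of the regulatory particle, 1 rose and 11 did not pass, with a median of 0.15. Psmd6 rose by 0.43 ± 0.09 (SE, limma adjusted p = 0.01), with 8.39 to 8.82 in stabilized and 8.05 to 8.13 in knockout lungs. Psmd2, the subunit that binds the ubiquitin-like domain of Ublcp1, was at 9.62, 9.76, 9.55 and 9.68 in stabilized and 9.51, 9.43, 9.28 and 9.47 in knockout replicates 1 to 4. Its groups did not overlap, but its difference of 0.23 ± 0.07 did not pass the test (SE, limma adjusted p = 0.071). It passed after centring (adjusted p = 0.034) and with the intensity trend (adjusted p = 0.036). The difference was 0.18 after repeated quantile normalization and 0.19 without stabilized replicate 2 (limma adjusted p = 0.14 and 0.15). Knockout replicate 3 was the lowest array for Psmd2 and the highest for Ublcp1, whereas stabilized replicate 2 was the highest of its group for both genes.

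Assembly chaperones, which help to build the particles, had 2 increases among 8 measured. Psmd5, a chaperone of the regulatory particle base, rose by 0.35 ± 0.07 (SE, limma adjusted p = 0.01). Pomp, which matures the core particle, rose by 0.32 ± 0.09 (SE, limma adjusted p = 0.041), a call lost in 5 of the 8 fits without 1 array. Of 17 shuttle factors and proteasome-bound regulators, Usp14, a deubiquitinase that sits on the regulatory particle, rose by 0.35 ± 0.08 (SE, limma adjusted p = 0.012) and 16 did not pass. The calls of Psma7, Psmc4, Psmd6, Psmd5 and Usp14 were kept in all fits without 1 array and lost when the 4 arrays with high Xist were left out. Their differences were then 0.39, 0.33, 0.49, 0.34 and 0.30, in that order.

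The immunoproteasome went the other way in its single call. Of 9 inducible subunits and alternative caps, Psmb9, the inducible core subunit of immune cells, fell by 0.32 ± 0.08 (SE, limma adjusted p = 0.031), a call lost in 6 of the 8 fits without 1 array, and 8 did not pass. This stood beside the decrease of the B, T and NK cell markers given above. The list's median was -0.03.

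**Figure D4:**
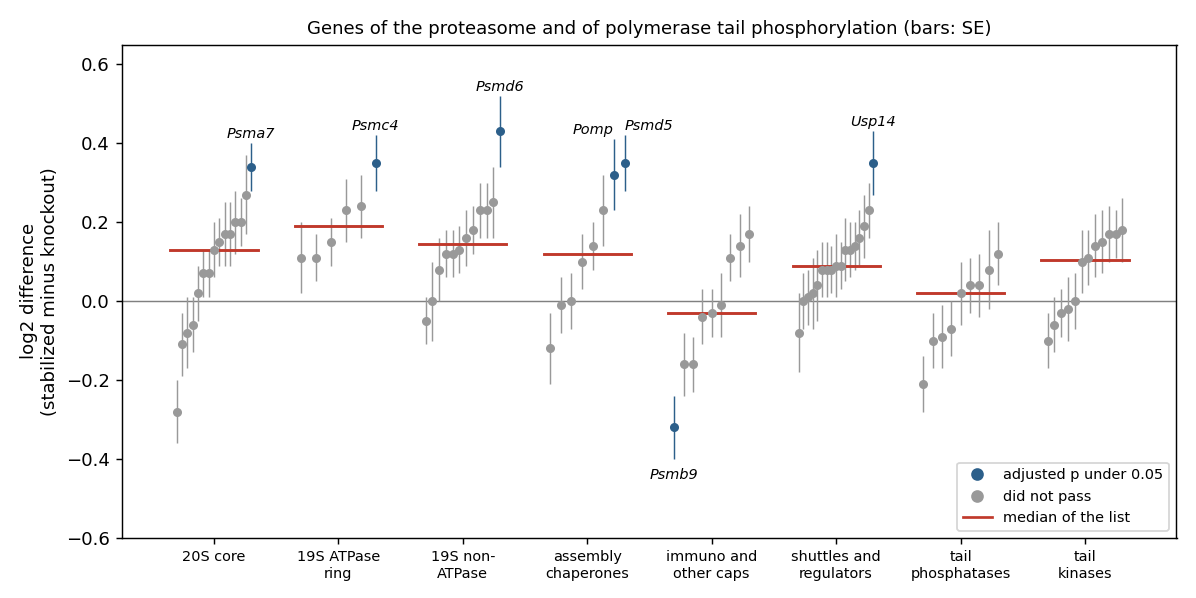
Log2 differences (stabilized minus knockout, with SE) of the genes of 6 proteasome lists and of 2 lists on phosphorylation of the RNA polymerase II tail, sorted within each list, with the list's median as a red line. The called genes, in blue, lie between 0.32 and 0.43 except Psmb9 at -0.32.

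Relatives of Ublcp1 and other enzymes of the polymerase tail did not pass. Of 9 phosphatases, most with the same catalytic motif, 0 were called (limma), with 1 at an unadjusted p under 0.05. Over all 19937 genes 9.62% were called and 4923 had an unadjusted p under 0.05. At that share, 0 calls in a list this short says little. Their differences ranged from -0.21 to 0.12, with a median of 0.02. Ctdnep1, a phosphatase of the nuclear envelope, had the smallest p among them with -0.21 ± 0.07 (SE, limma adjusted p = 0.091), Ssu72 differed by 0.12 ± 0.08 and Ctdsp1, a small phosphatase of the polymerase tail, by -0.09 ± 0.08 (SE). Of 12 tail kinases and their partners 0 were called (limma), with 3 at an unadjusted p under 0.05. The cyclins Ccnc and Ccnt2 had the smallest p, each with a difference of 0.17 (limma adjusted p = 0.13 and 0.16).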

How the data were processed

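The deposited values are log2 expression values for 34760 probe sets on 8 arrays, made with RMA and the affy package per the submitters' processing notes, with versions not given in the sources used here. RMA includes quantile normalization, which gives all arrays nearly the same distribution. Gene symbols came from the platform annotation: 21640 probe sets had 1 symbol, 1321 several and 11799 none here. For each of 19937 genes the probe set of highest mean was used. RefSeq (GRCm38.p6) gave names, gene order and the promoter sequence; the build of the probes is not given in the sources used here.

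Groups were compared with limma 3.58.1 (R 4.3.3; lmFit, eBayes, constant prior of 6.2 degrees of freedom, no covariate, no filter), with Benjamini-Hochberg adjustment over all genes. Precision is limited by 4 arrays a group, and arrays have no read depth. The labels state biological replicates. In simulated data on 19937 genes, log2 changes of 0.5 were recovered in 69% of 100 genes and those of 1 in 99% of 100, with 9 unchanged genes called. The simulation changed far fewer genes than the 1917 called here and drew independent noise for each gene. These shares therefore do not give the power of the real comparison. Named genes were Ublcp1, Ctnnb1, the nearest 3 genes on each side and called genes among 10, called list members (or the 2 with the smallest p), 6 genes of nearest profile, up to 3 on either side in rank, and Psmd2, Psmc2, Ctdsp1 and Nnt. The gene, the lists and the tests were chosen with earlier results of these data known. Some genes of the lists are not reported here.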

Additional observations from a re-analysis of the deposited data

Results flagged for a closer look

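In 74 groups of 4 arrays, taken over 37 named genes, 3 had an array far from the others by Dixon's criterion, which chance flags in about 1 of 20 groups. Cd79a lay at 5.07 in stabilized replicate 4, against 5.48 to 5.54 in the other stabilized arrays. Chad lay at 5.76 in stabilized replicate 2, against 6.27 to 6.36. Psmc2 lay at 8.81 in stabilized replicate 2, against 8.47 to 8.52. Neither group of Ublcp1 itself met the criterion.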

How the results depend on the processing

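Results were computed under 16 alternatives, with 2 further window sizes for the neighbours of Ublcp1 and without the filter on dim genes for Il12b, which that filter removed. The Ublcp1 difference lay between -2.64 and -2.39 with each array left out in turn, was -2.42 without the 4 arrays with high Xist, and -2.51 after centring. The count of 1917 called genes was 1216 to 1839 with 1 array left out and 354 without the arrays with high Xist, where fewer samples enter. Without those arrays 2 of the 20 neighbours of Ublcp1, 0 of the 20 neighbours of Ctnnb1 and 0 proteasome genes passed. The neighbours of Ublcp1 called were 4 in every fit with 1 array left out, and 1 with 5 genes on each side. The neighbours of Ctnnb1 called were 1 to 3 with 1 array left out and 1 with the mean of a gene's probe sets. Proteasome genes called were 5 to 10 with 1 array left out, 13 after centring and 12 with the intensity trend and robust prior. The 21 polymerase tail genes had 0 calls in limma under every alternative, with 4 at an unadjusted p under 0.05 in the fit reported above. In that fit 4923 of all 19937 genes had an unadjusted p under 0.05. Strain-variant genes called were 2 or 3 throughout. The cause of the changes with centring and with the trend was not tested. Of 36 other named genes, 22 kept direction and side of the threshold in every alternative that measured them. Among genes that were not called, Adra1b turned from 0.03 to -0.03 without the arrays with high Xist and lay between -0.01 (without stabilized replicate 4) and 0.09 with 1 array left out. Clint1 turned from -0.01 to 0.03 after centring, and lay between -0.03 and 0.03 (without knockout replicate 2) with 1 array left out. The replicate block gave 1828 called genes and a Ublcp1 difference of -2.55, and ended the calls of Pomp and Nlrp1b (adjusted p = 0.066 and 0.057). The labels used here do not say whether same-numbered arrays shared more than a number. Deviations of same-numbered arrays correlated by 0.084, 0.0738, -0.00514 and 0.0173, and 1 of 4 stabilized arrays correlated best with its own number. The arrays numbered 1, and likewise those numbered 2, also had the same Xist pattern. Weak correlations of this kind do not show that a pairing was absent.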
